A study of Mus musculus with 44 samples.

Results

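The genes described here are 9 components of the protease systems that open the follicle wall at ovulation: Adamts1, Adamts4, Adamts5, Adamts9, Mmp19, Plat, Plau, Plaur and Ctsl. They were taken by gene symbol, and all 9 were found among the 22674 genes of the maturation table and the 18274 genes of the ovulation table. RNA sequencing was made on 44 libraries of ovarian follicles from wild-type CD-1 mice, an outbred strain, exposed to PFNA (perfluorononanoic acid, a perfluoroalkyl substance) in either of 2 windows. In the window of gonadotropin-dependent maturation, 11 control libraries labelled DMSO were compared with 10 libraries labelled PFNA. In the window of ovulation, 12 control libraries labelled hCG (human chorionic gonadotropin, the hormone used to trigger ovulation) were compared with 11 libraries that received hCG with PFNA. The dose, the exposure times and the age of the animals are not given in the labels, and all groups share the wild-type genotype and the ovary as tissue. Nothing in the labels says that libraries of a group came from separate animals or cultures, so the p-values measure the spread between these libraries, which may be technical.

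At ovulation the follicle must dissolve part of its own wall. After the surge of luteinizing hormone, which hCG imitates, granulosa and theca cells make secreted and membrane-bound proteases that cut proteoglycans, collagens and basement membrane. ADAMTS enzymes are zinc metalloproteases that cleave proteoglycans such as versican, and loss of ADAMTS1 in mice impairs ovulation. Plasminogen activators convert plasminogen to plasmin, a serine protease of broad action, and matrix metalloproteinases and cysteine cathepsins act beside them. The progesterone receptor and RUNX factors are known regulators of several of these genes in granulosa cells.

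The members lie on 8 chromosomes of the mouse build GRCm38, by the GENCODE M21 annotation. Adamts1 (chr16:85793827-85803113, minus strand) and Adamts5 (chr16:85856173-85901828, minus strand) are neighbours, with 53059 bases between them, and their responses to PFNA at ovulation had opposite signs. Adamts4 is at chr1:171250421-171260637 (plus strand), Adamts9 at chr6:92772699-92943492 (minus strand) and Mmp19 at chr10:128790910-128800824 (plus strand). Plat is at chr8:22757727-22782844, Plau at chr14:20836660-20843385 and Plaur at chr7:24462484-24475968, all on the plus strand, and Ctsl is at chr13:64359337-64370890 on the minus strand. Adamts4, Adamts9, Mmp19 and Ctsl overlap genes on the opposite strand (Tmem198b for Mmp19, for example), and Ctsl also contains a processed pseudogene on its own strand. Whether the counting used strand is not stated, so reads of these 4 genes and of their overlapping partners may not be separated.

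The RefSeq promoter table (GRCm38.p6, 32851 promoters) holds 4 of the members, Adamts1, Adamts9, Plaur and Ctsl. The 250 bases before the start are shown for Adamts1 and Adamts9, which fell with PFNA at ovulation, and for Plaur, which did not pass the test, so that their motifs can be set side by side. The Ctsl window is described without its letters, because it lies within the GENCODE span of the gene. All are written 5′ to 3′ in the direction of transcription, and capitals mark matches, on either strand, to the motifs searched: GGGCGG (the core bound by Sp1), TGTGGT (RUNX), TGANTCA (AP-1), TGACGTCA (the cAMP response element), TTGCNNAA (C/EBP), CACGTG (E-box), CCAAT (NF-Y), TGTTCT (a partial site of steroid receptors, the progesterone receptor among them) and AGGTCA (a partial site of other nuclear receptors).
Adamts1, chr16:85803114-85803363, minus strand: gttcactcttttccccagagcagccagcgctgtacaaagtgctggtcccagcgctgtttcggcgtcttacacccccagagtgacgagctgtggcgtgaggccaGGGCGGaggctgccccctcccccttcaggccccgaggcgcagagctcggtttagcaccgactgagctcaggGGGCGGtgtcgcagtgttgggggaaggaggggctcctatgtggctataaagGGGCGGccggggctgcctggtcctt
Adamts9, chr6:92943535-92943784, minus strand: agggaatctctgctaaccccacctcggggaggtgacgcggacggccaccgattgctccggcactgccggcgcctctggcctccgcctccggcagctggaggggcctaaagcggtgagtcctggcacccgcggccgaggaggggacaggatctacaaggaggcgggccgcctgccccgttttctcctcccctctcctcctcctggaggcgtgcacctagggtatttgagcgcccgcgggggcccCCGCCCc
Plaur, chr7:24462233-24462482, plus strand: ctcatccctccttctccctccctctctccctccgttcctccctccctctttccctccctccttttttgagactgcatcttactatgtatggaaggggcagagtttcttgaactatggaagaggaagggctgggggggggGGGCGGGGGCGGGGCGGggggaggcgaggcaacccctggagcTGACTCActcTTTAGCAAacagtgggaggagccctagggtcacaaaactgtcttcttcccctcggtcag
The Adamts1 window holds 3 GGGCGG matches and the Adamts9 window holds 1, written as its reverse complement. The Plaur window holds 3 adjoining or overlapping GGGCGG matches, 1 TGANTCA match and 1 TTGCNNAA match. The window of Ctsl, which also fell at ovulation, holds no GGGCGG match, 1 TTGCNNAA match and 1 CACGTG match. GGGCGG occurs in 32.7% of all promoters of this length, TGANTCA in 6.75% and TTGCNNAA in 9.56%. TGTGGT, found in 14% of all promoters, TGTTCT, found in 16.1%, and AGGTCA, found in 14%, have no match in any of the 4 windows, nor have CCAAT (33.8%) and TGACGTCA (1.55%), and CACGTG (6.02%) has its match in the Ctsl window alone. The windows hold 65.6% G and C for Adamts1, 71.2% for Adamts9, 59.6% for Plaur and 47.2% for Ctsl, against a median of 52.4% over all promoters. A match is a description of the letters and not a measured binding site.

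In the ovulation window, expression is given in CPM (counts scaled to each library's total, adjusted by TMM). Library totals, in units of 1e+06 counts, averaged 14.1 ± 1.30 over the 12 controls and 14.9 ± 2.18 over the 11 PFNA libraries (both SD). In the maturation window, expression is given in TPM (transcript abundance divided by length and scaled to a fixed total), and the read depth behind it is unknown. A gene was called when its adjusted p (Benjamini-Hochberg over all genes tested) was under 0.05. The response of the whole transcriptome to PFNA was broad: of 13441 genes tested at ovulation 73.2% were called, 38.0% higher and 35.2% lower, and of 13712 genes tested during maturation 29.4% were called, 13.3% higher and 16.1% lower. A call alone therefore separates a member little from other genes at ovulation, and the size of the change and the overlap of the libraries are given with each.

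Of the markers of cell types a follicle can hold, oocyte and granulosa markers moved with PFNA in both windows. Few markers of the other lists were called during maturation. In bulk RNA, fewer cells of a type and less RNA per cell cannot be told apart. Summed oocyte markers ran from 300 to 453 TPM in maturation controls, with a median of 424, and from 25.4 to 667 TPM with PFNA, with a median of 35.6, and all 17 tested markers fell. PFNA replicates 1 (318 TPM), 2 (230 TPM) and 10 (667 TPM) stood apart from the other PFNA libraries. Summed granulosa markers were lower with PFNA during maturation as well, with a median of 58867 TPM in controls and 36996 TPM with PFNA, and 7 of 14 tested markers fell. In the same window none of 8 tested endothelial markers was called (median sums 86 and 90.5 TPM). Of the fibroblast, smooth muscle and surface markers 1 of 10 rose (427 and 646 TPM), and of the leukocyte markers 1 of 5 (51.9 and 66 TPM). Of 10 theca markers 2 rose and 1 fell (6667 and 5367 TPM). At ovulation the granulosa sums had medians of 20482 CPM in controls and 22292 CPM with PFNA, with 10 of 14 markers higher and 3 lower. At ovulation the oocyte sum had a median of 266 CPM in controls and 522 CPM with PFNA, with 11 of 19 tested markers higher. Endothelial markers at ovulation had a median sum of 123 CPM in controls and 215 CPM with PFNA, with 7 of 10 higher. The fibroblast, smooth muscle and surface markers had medians of 1292 and 1771 CPM, with 7 of 9 tested markers higher, and control replicate 9 was lowest at 180 CPM. The theca list at ovulation had medians of 3645 and 2267 CPM, with 4 of 10 markers lower and 3 higher, and it contains Star, Cyp11a1 and Hsd3b1, which luteinizing granulosa cells also make. The leukocyte markers had medians of 34.4 and 77.7 CPM, with 4 of 10 higher. No marker that was found was at 0 in every library, but Upk1b, a surface marker, was found in neither window. The surface markers Krt7, Upk3b and Msln had medians near 0 over the libraries of both windows, as had Krt19 during maturation. Ddx4 of the oocyte list and Ptprc, Itgam and Cd52 of the leukocyte list had medians near 0 during maturation.

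With PFNA at ovulation, 6 of the 9 members fell, 1 rose and 2 did not pass the test (edgeR's quasi-likelihood test), beside the 73.2% of all genes called. The share of members called, 77.8%, is near that background. Without covariates, the 2 largest falls were those of Plau, urokinase-type plasminogen activator, which fell 6.16-fold, and Adamts9, which fell 6.05-fold. For both, every PFNA library lay below every control library, which was so for 14.1% of all genes tested. Adamts4 and Mmp19 also fell by at least 2-fold, so that 4 members were called and at least 2-fold lower, beside 9.02% of all genes. Adamts5 was the member that rose. The median log2 fold change of the members was -0.79, and that of all genes tested was 0.04. Adamts1, Adamts4, Adamts9, Mmp19, Plau and Ctsl stayed called lower, and Adamts5 higher, when the summed oocyte, endothelial, fibroblast, leukocyte, theca or granulosa markers were added, each on its own, as a covariate. Over these 6 covariates Adamts1 ranged from -0.87 to -0.40 on the log2 scale, its smallest fall being with the theca sum (adjusted p = 0.045), and Adamts4 from -2.65 with the fibroblast list to -1.25 with the granulosa sum. Ctsl ranged from -0.85 to -0.49, Mmp19 from -1.56 to -0.93 and Adamts5 from 1.10 to 1.62. Adamts9 ranged from -2.85 to -2.01, lowest in size with the theca sum, and Plau from -2.72 to -2.31, so that the order of Plau, Adamts9 and Adamts4 changed with the covariate.

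**Figure D1:**
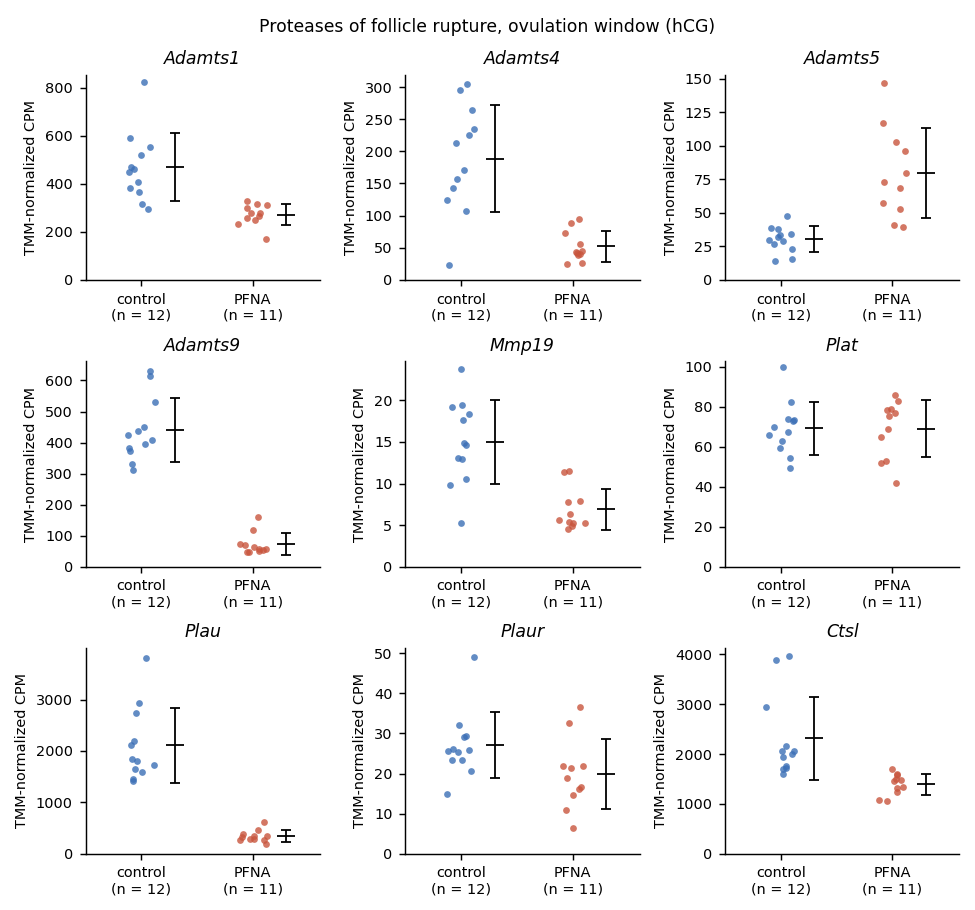
Expression of the 9 members in the ovulation window, in CPM on linear axes that start at 0, with a point for each of the 12 control and 11 PFNA libraries and bars beside them for each group's mean ± SD. The PFNA libraries of Plau (187 to 610 CPM) and Adamts9 (47.3 to 159 CPM) all lie below the controls, those of Adamts5 lie mostly above, and those of Plat overlap the controls.

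Adamts1 encodes the ADAMTS protease best known in the ovulating follicle, where it cleaves versican. Its control libraries lay between 296 and 822 CPM with a median of 456, and its PFNA libraries between 171 and 328 CPM with a median of 277. The 2 groups overlapped, with 7 of 11 PFNA libraries below every control and the other 4 inside the control range. Controls averaged 469 ± 143 CPM (SD, n = 12) and PFNA libraries 272 ± 44.5 CPM (SD, n = 11), and the log2 fold change was -0.79 ± 0.14 (SE, adjusted p = 1.5e-05, edgeR).

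Adamts4 encodes a second proteoglycan-cleaving member of the family. It lay between 22.5 and 305 CPM in controls, with a median of 192, and between 24.7 and 94.5 CPM with PFNA, with a median of 43.8. Apart from control replicate 9, the lowest of all 23 libraries for this gene, each of the other 11 controls was above every PFNA library. The log2 fold change was -1.85 ± 0.31 (SE, adjusted p = 8.1e-06, edgeR), with means of 188 ± 83.5 CPM in the 12 controls and 52.1 ± 23.7 CPM in the 11 PFNA libraries (both SD). Control replicate 9 was also the lowest control for Adamts1, Mmp19 and Plat, and it had the lowest control sums of the leukocyte, endothelial and fibroblast, smooth muscle and surface markers. Without it the log2 fold change of Adamts4 was -1.97 (adjusted p = 1.22e-07).

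Adamts9 encodes a large ADAMTS protease that cuts versican and aggrecan. Its controls lay between 310 and 632 CPM with a median of 416, and its PFNA libraries between 47.3 and 159 CPM with a median of 58.6. The highest PFNA library, replicate 10, was still below the lowest control. Controls averaged 441 ± 102 CPM (SD, n = 12) and PFNA libraries 72.7 ± 35.2 CPM (SD, n = 11), with a log2 fold change of -2.60 ± 0.20 (SE, adjusted p = 3.3e-11, edgeR).

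Adamts5 encodes the aggrecanase beside Adamts1 on the chromosome, and it moved the other way. Its controls lay between 14.3 and 48.0 CPM with a median of 30.9, and its PFNA libraries between 39.2 and 147 CPM with a median of 73.0. All but 2 PFNA libraries were above every control. Controls averaged 30.3 ± 9.61 CPM (SD, n = 12) and PFNA libraries 79.6 ± 33.5 CPM (SD, n = 11), with a log2 fold change of 1.39 ± 0.22 (SE, adjusted p = 4.1e-06, edgeR).

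Mmp19 encodes a matrix metalloproteinase described in the follicle around ovulation. It was the least counted member, with 70 to 359 counts in controls and 69 to 231 with PFNA. Controls lay between 5.23 and 23.7 CPM with a median of 14.7, and PFNA libraries between 4.59 and 11.5 CPM with a median of 5.66. The groups overlapped, with 4 of 11 PFNA libraries below every control. Controls averaged 15.0 ± 5.05 CPM (SD, n = 12) and PFNA libraries 6.91 ± 2.49 CPM (SD, n = 11), with a log2 fold change of -1.11 ± 0.21 (SE, adjusted p = 3.4e-05, edgeR).

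The plasminogen activators and the receptor of urokinase were not alike in their response. Plau lay between 1408 and 3817 CPM in controls, with a median of 1826, and between 187 and 610 CPM with PFNA, with a median of 327. Both ranges lie far apart, and the highest control was replicate 4. Controls averaged 2106 ± 721 CPM (SD, n = 12) and PFNA libraries 342 ± 113 CPM (SD, n = 11), with a log2 fold change of -2.62 ± 0.19 (SE, adjusted p = 8.8e-12, edgeR). Plat, tissue-type plasminogen activator, makes the same product, plasmin, and lay between 49.3 and 99.8 CPM in controls (median 68.9) and between 42.0 and 85.7 CPM with PFNA (median 75.7). These ranges coincide, and only PFNA replicate 5 was below every control. The log2 fold change of Plat was -0.004 ± 0.12 (SE, adjusted p = 0.98, edgeR), with a 95% interval from -0.23 to 0.22, which does not include a change as large as that of Plau. Plaur, the receptor that holds urokinase at the cell surface, lay between 15.0 and 49.1 CPM in controls (median 25.8) and between 6.44 and 36.7 CPM with PFNA (median 18.9). Its log2 fold change was -0.45 ± 0.21 (SE, adjusted p = 0.063, edgeR), with a 95% interval from -0.86 to -0.03, and 3 of 11 PFNA libraries were below every control. Its call changed with the test, since limma on log2(CPM + 1) gave an adjusted p = 0.032, and with single libraries: edgeR's adjusted p was 0.0354 without control replicate 6, 0.025 without PFNA replicate 4 and 0.0143 without PFNA replicate 5.

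Ctsl encodes cathepsin L, a cysteine protease of lysosomes that can also be secreted. Controls lay between 1594 and 3976 CPM with a median of 2031, and PFNA libraries between 1057 and 1700 CPM with a median of 1449. Of the 11 PFNA libraries 9 were below every control, and the spread was narrower with PFNA. Controls averaged 2317 ± 829.2 CPM (SD, n = 12) and PFNA libraries 1393 ± 209 CPM (SD, n = 11), with a log2 fold change of -0.73 ± 0.15 (SE, adjusted p = 9.6e-05, edgeR).

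RNA of all 9 members was measured in the maturation window, where levels can be compared between genes since TPM is per length. In control libraries the order of mean TPM was Ctsl, Adamts1, Plau, Adamts5, Plat, Adamts4, Mmp19, Adamts9 and Plaur. Ctsl stood at 657 ± 82.1 TPM (SD, n = 11) and Plaur at 1.89 ± 1.57 TPM (SD, n = 11). Between neighbours in this order, the control ranges of Ctsl and Adamts1 and those of Plau and Adamts5 did not overlap. The ranges of all other neighbours overlapped. Compared within the same library, Adamts5 was above Plat in every control. The order of Adamts1 and Plau, and that from Plat to Plaur step by step, turned in some controls and lies within the spread of the libraries.

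With PFNA during maturation, 2 of 9 members fell, none rose and 7 did not pass the test (limma on log2(TPM + 1)), beside the 29.4% of all genes called. The median log2 fold change of the members was 0.21, and that of all genes tested was 0.02. None of the 9 had groups without overlap, which 0.788% of all genes tested had with every PFNA library below the controls and 0.489% with every PFNA library above them. The members that fell were Adamts1 and Adamts5.

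**Figure D2:**
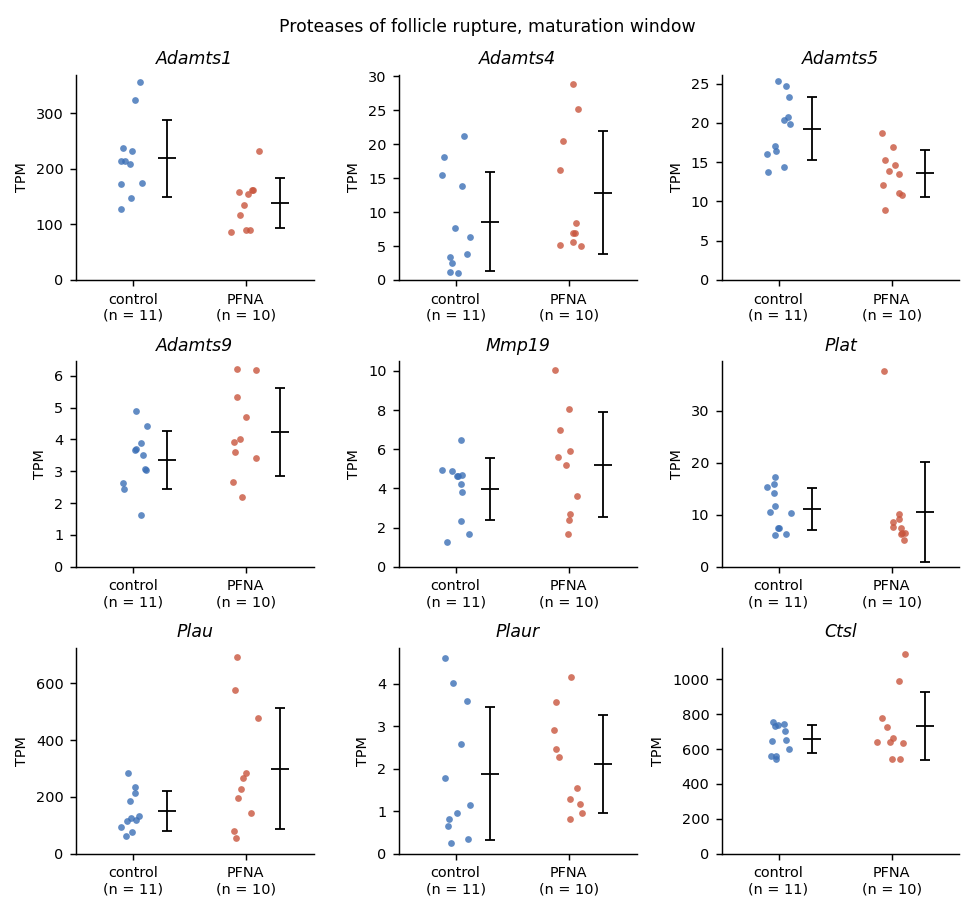
Expression of the 9 members in the maturation window, in TPM on linear axes that start at 0, with a point for each of the 11 control and 10 PFNA libraries and bars beside them for each group's mean ± SD. Adamts1 and Adamts5 are lower with PFNA with overlapping libraries, and Plat has a PFNA library apart at 37.6 TPM.

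Adamts1 lay between 128 and 356 TPM in controls, with a median of 213, and between 86.1 and 232 TPM with PFNA, with a median of 145. Controls averaged 219 ± 69.2 TPM (SD, n = 11) and PFNA libraries 138 ± 45.3 TPM (SD, n = 10), with a log2 fold change of -0.67 ± 0.19 (SE, adjusted p = 0.011, limma), and 4 of 10 PFNA libraries were below every control. Adamts5 lay between 13.8 and 25.4 TPM in controls (median 19.9) and between 8.90 and 18.7 TPM with PFNA (median 13.7). The log2 fold change of Adamts5 was -0.48 ± 0.13 (SE, adjusted p = 0.0065, limma), with 5 of 10 PFNA libraries below every control. Adamts5 thus fell during maturation and rose at ovulation, while Adamts1 fell in both windows. With the oocyte marker sum as a covariate both stayed called, Adamts1 at -1.03 (adjusted p = 0.026) and Adamts5 at -0.68 (adjusted p = 0.029, limma). With the theca or the granulosa sum as a covariate, Adamts1 was no longer called, at -0.47 (adjusted p = 0.10) and -0.53 (adjusted p = 0.32), whereas Adamts5 stayed called, at -0.43 (adjusted p = 0.036) and -0.65 (adjusted p = 0.047, limma). Without PFNA replicates 1, 2 and 10 together, Adamts1 was at -0.50 with an adjusted p = 0.056 (limma).

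The PFNA libraries of Plau were spread widely. Controls lay between 61.2 and 286 TPM with a median of 128, and PFNA libraries between 55.0 and 692 TPM with a median of 248. The lowest PFNA library, replicate 2, was below every control, and 3 others were above every control. The log2 fold change was 0.77 ± 0.39 (SE, adjusted p = 0.15, limma), with a 95% interval from -0.05 to 1.58, and it was -0.74 with the granulosa sum as a covariate (adjusted p = 0.33). Without PFNA replicate 2 alone it was 0.99 with an adjusted p = 0.036 (limma), and without PFNA replicates 1 and 2 it was 1.21 with an adjusted p = 0.0057. These are the libraries with oocyte marker sums of 318 and 230 TPM. Their granulosa marker sums, 52276 and 54784 TPM, were the highest of the PFNA group. PFNA replicate 10 had Plau at 575 TPM, an oocyte marker sum of 667 TPM and the lowest granulosa marker sum, 17849 TPM. Within groups, Plau and the oocyte sum had r = -0.197 and rho = -0.139 (permutation, adjusted p = 0.66 and 0.72, n = 21). Without the 2 libraries farthest from the median, r was -0.453. With the granulosa sum, Plau had r = -0.741 and rho = -0.523 (permutation, adjusted p = 0.0059 and 0.081, n = 21), so only r passed.

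The other members of the maturation window did not pass the test. Adamts4 was at 8.59 ± 7.28 TPM (SD, n = 11) in controls and 12.9 ± 9.08 TPM (SD, n = 10) with PFNA, and the 95% interval of its log2 fold change ran from -0.23 to 1.65. Adamts9 was at 3.35 ± 0.92 TPM and 4.23 ± 1.37 TPM, with an adjusted p = 0.23, and Mmp19 at 3.96 ± 1.57 TPM and 5.22 ± 2.68 TPM, with an adjusted p = 0.44 (limma). Plat was at 11.2 ± 4.04 TPM in controls and 10.5 ± 9.65 TPM with PFNA, where replicate 10 at 37.6 TPM stood apart from the next library at 10.1 TPM. Plaur, at 1.89 ± 1.57 TPM and 2.12 ± 1.15 TPM, was near the level of 1 TPM used as a lower limit. Ctsl was at 657 ± 82.1 TPM and 731 ± 196 TPM, with an adjusted p = 0.46 (limma), and its highest PFNA library was replicate 7 at 1147 TPM.

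The PFNA effect was compared between the windows as the difference of both log2 fold changes, each taken within its own table. Of the 9 members 6 were called, 5 lower and 1 higher at ovulation than during maturation, beside 67.7% of the 11215 genes tested, 32.0% higher and 35.6% lower. The median difference of the members was -0.80 on the log2 scale, and that of all genes -0.04. Plau differed by -3.38 ± 0.43 (SE, adjusted p = 5.6e-08, limma), with a value above 0 during maturation and a fall at ovulation. With the oocyte sum as a covariate its difference was -2.69 (adjusted p = 6.0e-04), smaller in size than that of Adamts9 at -3.01. Adamts9 differed by -2.91 ± 0.23 (adjusted p = 1.5e-14), Adamts4 by -2.45 ± 0.56 (adjusted p = 2.1e-04), Mmp19 by -1.26 ± 0.31 (adjusted p = 5.3e-04) and Ctsl by -0.80 ± 0.18 (adjusted p = 1.8e-04). Adamts5 differed in the other direction, by 1.80 ± 0.25 (adjusted p = 7.1e-08). For Adamts1 the difference was -0.09, with a 95% interval from -0.56 to 0.38, and for Plat it was 0.23, with an interval from -0.35 to 0.81. Plaur was at -0.72 with an adjusted p = 0.066.

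**Figure D3:**
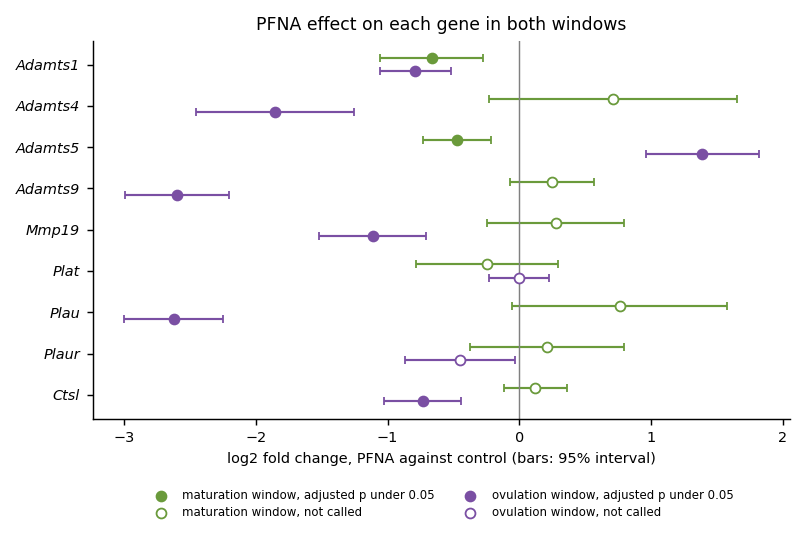
PFNA effect on each member as a log2 fold change with its 95% interval, in the maturation window (log2(TPM + 1)) and the ovulation window (edgeR), with filled points for genes called and open points for those not called. The intervals of Adamts1 overlap between the windows (-0.67 and -0.79), those of Plau, Adamts9 and Adamts4 lie apart, and Adamts5 changes side.

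The libraries varied together within their groups. Over the 36 pairs of members, the Spearman correlation of deviations from the group mean was above 0 in 34 pairs during maturation, with a median of 0.47 over 21 libraries, and in 32 pairs at ovulation, with a median of 0.23 over 23 libraries. The highest pair was Adamts4 with Plaur in the maturation window, at 0.842, and Adamts1 with Plau at ovulation, at 0.664. These are descriptions over libraries that share their processing. The same share was not taken over pairs of other genes, so it does not set the members apart from them. By the same measure, the gene most like Plau at ovulation was Rnf146 (0.955, among 9566 genes), the gene most like Adamts1 was Btbd3 (0.910), like Adamts4 Fgfr1 (0.900), like Mmp19 Loxl2 (0.833), like Adamts9 Hunk (0.811), like Plaur Clcf1 (0.799), like Adamts5 Helz (0.777), like Plat Prickle1 (0.754) and like Ctsl Pitpnc1 (0.753). During maturation, among 7403 genes, it was Nid1 for Plat (0.923), Thbd for Adamts4 (0.913), Arpc2 for Ctsl (0.913), Tmem171 for Adamts1 (0.862), Coq8a for Plau (0.844) and Pld3 for Adamts5 (0.839).

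Of 108 relations between a member and a marker sum within groups, those of Plat and Mmp19 with the fibroblast, smooth muscle and surface markers were among the highest. In the maturation window Plat rose with that sum at r = 0.858 and rho = 0.892 (permutation, adjusted p = 7.2e-04 for both, n = 21), and at r = 0.828 without the 2 libraries farthest from the median. Mmp19 did so at r = 0.780 and rho = 0.842 (permutation, adjusted p = 0.0019 and 7.2e-04, n = 21), and at r = 0.707 without the 2 farthest. At ovulation the relation was not detected for Plat (r = 0.185, rho = 0.072), but it was for Mmp19 (r = 0.785, rho = 0.676, permutation, adjusted p = 0.0029 and 0.0074, n = 23), where it was r = 0.574 without the 2 farthest libraries, and for Adamts4 (r = 0.824, rho = 0.612, permutation, adjusted p = 0.0035 and 0.017, n = 23), where it was r = 0.588. Both correlations passed for 6 of 9 members with this list during maturation and for 2 of 9 at ovulation. With the endothelial sum they passed for 5 of 9 during maturation, and with the granulosa sum for 4 of 9. Plat and Mmp19 were among both sets, so their relation is not particular to the fibroblast list. Their rho was 0.838 and 0.760 with the endothelial sum, and -0.658 and -0.647 with the granulosa sum. For Ctsl during maturation the relation with the granulosa sum was negative, at r = -0.817 and rho = -0.742 (permutation, adjusted p = 0.0028 and 0.0046, n = 21). None of the 9 members passed with the oocyte sum in either window. With the theca sum at ovulation, which was lower with PFNA, Adamts1 passed at r = 0.670 and rho = 0.606 (permutation, adjusted p = 0.0031 and 0.018, n = 23; r = 0.495 without the 2 farthest) and Adamts9 at r = 0.665 and rho = 0.658 (permutation, adjusted p = 0.0057 and 0.0095, n = 23; r = 0.660 without the 2 farthest). Plau passed with the granulosa sum at ovulation, at r = 0.554 and rho = 0.544 (permutation, adjusted p = 0.030 and 0.049, n = 23; r = 0.534 without the 2 farthest).

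**Figure D4:**
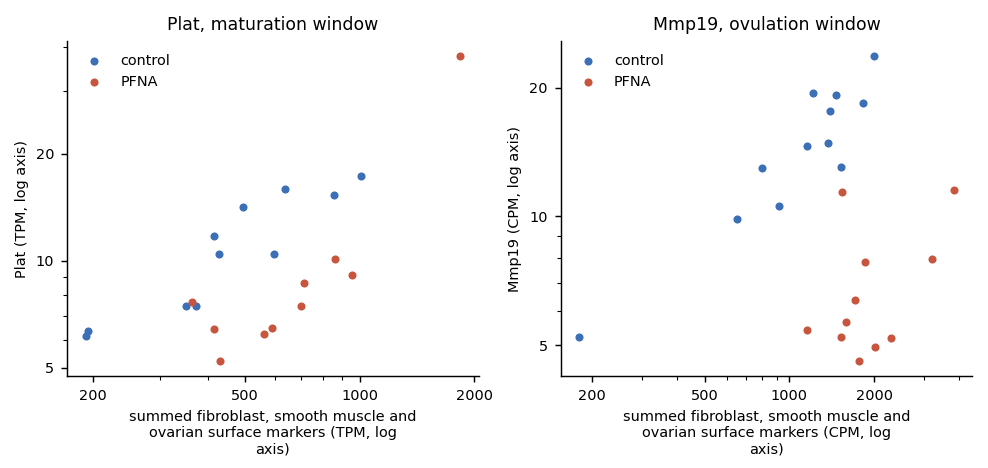
Plat in the maturation window (TPM) and Mmp19 in the ovulation window (CPM) against the summed fibroblast, smooth muscle and surface markers, on log axes, with a point per library coloured by group. Plat rises with the sum in both groups, with PFNA replicate 10 at 37.6 TPM at the upper end, and Mmp19 lies lower with PFNA at like sums.

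In all, 7 lists of related genes were examined in the same fits, and the members were not counted in them. At ovulation the other ADAMTS and ADAMTS-like genes split: of 15 tested 10 rose and 3 fell, with a median log2 fold change of 0.76. Adamts3, a procollagen processing protease, fell by 3.02 on the log2 scale, from 23.7 to 2.91 CPM, and each of its PFNA libraries was below every control. Adamts2, which also processes procollagens, and Adamts10 rose by 0.95 (adjusted p = 1.7e-05) and 0.79 (adjusted p = 1.4e-06, edgeR) on the log2 scale, and Adamts7 fell by 0.62. Of the proteoglycan substrates and partners 4 of 10 rose and 4 fell, with a median of 0.20. Vcan, the versican that several ADAMTS enzymes cut, fell by 2.79 on the log2 scale (adjusted p = 1.5e-10, edgeR): the 12 controls averaged 9598 ± 3793 CPM and the 11 PFNA libraries 1389 ± 638 CPM (both SD). Sdc4 fell by 0.67, Bcan rose by 1.26 and Lrp1, a receptor that clears proteases and inhibitors, by 0.63.

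Within the plasminogen system at ovulation 6 of 14 genes rose and 4 fell. Serpinb2, an inhibitor of urokinase, fell by 0.77 on the log2 scale (adjusted p = 0.020, edgeR), and Serpine2, protease nexin 1, did not pass the test at -0.10 (adjusted p = 0.41). Anxa2, which binds plasminogen at the cell surface, rose by 0.63 and Itgb3 fell by 0.59. The cathepsins rose in 8 of 12 and fell in 2 of 12, where Ctsc fell by 1.37, Lgmn fell by 0.53, Ctso rose by 0.91 and Ctsa rose by 0.39. Among the inhibitors of metalloproteinases and cysteine proteases 4 of 10 rose and 4 fell: Timp1 fell by 2.01 (adjusted p = 3.0e-11, edgeR) from 181 to 44.9 CPM, Timp2 rose by 1.18 and Timp3 by 0.75, Spint2 rose by 1.29 and Cstb fell by 0.58. Of the other matrix metalloproteinases 8 of 13 rose and 3 fell, and Mmp15 rose by 1.44, Mmp23 rose by 1.67 and Mmp11 fell by 0.66.

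Among the ovulatory transcription regulators, 10 of 18 fell and 7 rose at ovulation, with a median of -0.34. Pgr, the progesterone receptor, fell by 3.78 on the log2 scale (adjusted p = 1.9e-08, edgeR), and its controls averaged 899 ± 405 CPM against 65.3 ± 59.5 CPM with PFNA (SD, 12 and 11 libraries). Runx1 fell by 3.49 (adjusted p = 1.0e-17, edgeR) and Runx2 fell by 2.74. Jun and Epas1 rose by 2.68 and 2.03. During maturation, where 29.4% of all genes were called against 73.2% at ovulation, and by a different fit, the calls were 1 higher and 1 lower of 7 other ADAMTS genes, 2 and 1 of 8 substrates and partners, 2 and 3 of 12 in the plasminogen system, 4 and 1 of 12 cathepsins, 1 and 0 of 8 inhibitors, 3 and 0 of 6 metalloproteinases, and 5 and 3 of 14 regulators. Vcan fell by 1.68, Ctsc fell by 1.13, Serpine2 fell by 1.14 and Serpina5 fell by 0.97, and Serpinb6a rose by 0.33. Adamts2 rose by 0.95, Fn1 by 1.10, Mmp11 by 0.92, Mmp15 by 0.72, Ctsf by 0.62, Spint2 by 0.54, Bcan by 0.53, Epas1 by 0.45, Nrip1 by 0.44 and Ctsa by 0.25. Cebpa fell by 0.97 and Nr5a2 fell by 0.51, and Timp1 and Timp3 did not pass the test, at -0.18 and 0.49. Pgr, Runx1 and Serpinb2 were under 1 TPM there and were not tested.

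**Figure D5:**
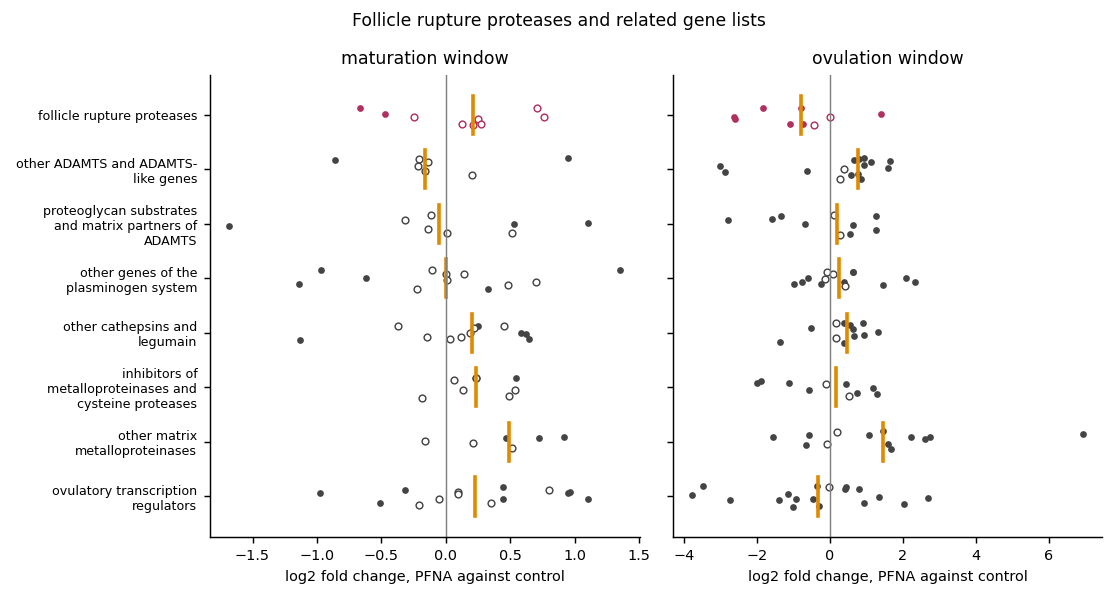
Log2 fold change with PFNA of each tested gene among the 9 members (top) and in the 7 lists of related genes, in the maturation and ovulation windows, with a filled point per gene called, an open point per gene not called, and a vertical bar at each median. At ovulation the list medians run from -0.34 for the transcription regulators to 1.44 for the other matrix metalloproteinases.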

How the data were processed

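Each window has its own deposited table of genes. Although the maturation file is titled as counts, its values, as deposited, are TPM: each of the 21 libraries sums to 1000000. The ovulation table holds estimated counts as deposited by the authors, of which 21.2% of the values above 0 are not whole, and they were rounded. Per the submitters' processing notes, Partek, Bowtie2 and HISAT2 were used, and their roles, the build and the use of strand are not given in the sources used here. Columns were joined to samples by title, and 1 column name that matches no title was taken as the maturation control of the nearest title, replicate 6. Because the unit was TPM, the maturation window was tested with limma 3.58.1 (trend, robust) on log2(TPM + 1) where a gene averaged 1 TPM or more, which understates the change of low genes. Ovulation counts were tested with edgeR 4.0.16 (R 4.3.3, TMM, filterByExpr, quasi-likelihood, robust). The difference between windows was fitted with limma within each table, and log2(CPM + 1) was used for ovulation. P-values were adjusted with Benjamini-Hochberg over all genes and called at 0.05. Within-group relations used 100000 permutations. The scripts were tested on simulated data. The members and lists were chosen with earlier results of these data known. Named were all 9 members, per window and list the called genes of smallest p averaging 10 CPM or TPM or more in a group (up to 2 higher and 2 lower), a set of inhibitors, substrates and regulators whatever their result (not all are reported here), and the likest gene of each member. Alternatives tried were another normalization, DESeq2 1.42.0, other pseudocounts and filters, marker sums as covariates, the replicate block and leaving libraries out. Libraries of a group were compared for duplicates: the highest correlation of log2(TPM + 1) was 0.981, and the lowest chi-square per degree of freedom of an ovulation pair was 7.54.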

Additional observations from a re-analysis of the deposited data

Results flagged for a closer look

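In the maturation PFNA group, 5 of the 15 results searched had a library apart from the others. At a rate of 5 percent, 0.75 would be expected among 15 independent results. These results are not independent, and all but that of Adamts1 concern PFNA replicate 10, so an excess over chance was not measured. Adamts1 was highest in PFNA replicate 5 at 232 TPM, with the next library at 162 TPM. PFNA replicate 10 was apart for Plat, at 37.6 TPM with the next at 10.1 TPM. The same library was apart for the summed oocyte markers (667 TPM, next 318), the summed leukocyte markers (181 TPM, next 98.1) and the summed fibroblast, smooth muscle and ovarian surface markers (1833 TPM, next 955).

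The PFNA effect differed between the windows, as ovulation minus maturation on the log2 scale, for Adamts4 (-2.45), Adamts5 (1.80), Adamts9 (-2.91), Mmp19 (-1.26), Plau (-3.38) and Ctsl (-0.80), each by the limma test of the difference itself.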

How the results depend on the processing

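At ovulation 7 or 8 members were called under each setting run, the other being Plaur, and the difference between windows was called for 6 or 7, Plaur again. That difference passed for Plaur (-0.834 to -0.788, adjusted p 0.0293 to 0.0451) without maturation controls 8, 10 or 12 or PFNA 1, or ovulation control 6 or PFNA 4 or 5. Leaving out 1 library gave 2 to 3 members called during maturation, 7 to 8 at ovulation and 6 to 7 for the difference. The replicate block gave 2, 8 and 7, and Plaur then stood at -0.53 (adjusted p = 0.00849) at ovulation; numbers did not pair the libraries (correlations -0.138 to 0.168 over 9 pairs and -0.193 to 0.073 over 11 pairs). During maturation 4 members were called without PFNA replicates 1 and 2, Adamts9 at 0.39 (adjusted p = 0.034, limma) and Plau at 1.21 being gained. Calls over all genes rose as well, to 5201 of 13725 from 4030 of 13712 in the main fit, and those higher to 2600 from 1824. Without replicates 1, 2 and 10 Adamts1 was at -0.50 (adjusted p = 0.056, limma) and Plau at 1.08 (adjusted p = 0.014, limma), with 4863 of 13685 genes called. Directions turned for Plat during maturation with the oocyte covariate (0.43), for Mmp19, Plaur and Ctsl with the fibroblast covariate (-0.091, -0.14 and -0.033; Plat was then called at -0.66), for Mmp19 and Ctsl with the theca covariate (-0.0430 and -0.0464; 1 member, Adamts5, then stayed called), for Adamts9, Mmp19, Plau, Plaur and Ctsl with the granulosa covariate (-0.23, -0.60, -0.74, -0.24 and -0.36; Plat was then called at -1.25, and Adamts1 was not called), for Plat at ovulation with median-ratio factors and DESeq2 (0.0191 and 0.0190), with the theca and granulosa covariates (0.12 and 0.0557) and with single libraries left out (-0.0441 to 0.0516), and for Adamts1 and Plat in the difference with the oocyte covariate (0.33 and -0.61), and for Adamts1 when single libraries were left out (-0.16 to 0.0016); the cause was not tested. Over all genes 4030 were called during maturation, 994 with the oocyte covariate and 630 with the granulosa covariate. The covariates other than the oocyte sum, and leaving out replicates 1, 2 and 10, were chosen after seeing the data. Rescaling without mitochondrial genes was not run, since no such symbols were found.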

Other observations

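The fall of Ctsc, dipeptidyl peptidase 1, was seen in both windows, by 1.13 on the log2 scale during maturation (adjusted p = 2.6e-04, limma) and by 1.37 at ovulation (adjusted p = 4.3e-09, edgeR), and in the list of 12 tested cathepsins and legumain that holds it, 8 rose and Lgmn also fell at ovulation. Mmp12 and Mmp13, which were at 1.45 ± 1.18 and 1.22 ± 1.07 CPM (SD, n = 12) in ovulation controls, were at 9.84 ± 12.3 and 7.52 ± 3.65 CPM (SD, n = 11) with PFNA; they were chosen after their values were seen. Their control levels were low and they were picked by their values, so no p-value is given for them. Mmp25, a membrane-anchored metalloproteinase and also chosen after its values were seen, lay between 0 and 0.264 CPM in ovulation controls. With PFNA it lay between 5.69 and 13.3 CPM. The gene passed the filter on low counts only through its PFNA libraries, so no p-value is given for it. Its controls hold only a few counts per library, so no fold is given.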
